A study of Mus musculus with 15 samples.

Results

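The genes described are those of the PP-fold peptide family and its receptors in mouse islet cells. They comprise the ligand genes Ppy (pancreatic polypeptide), Pyy (peptide YY) and Npy (neuropeptide Y), and the receptor genes Npy1r, Npy2r and Npy5r. They were taken by symbol from the deposited expression table, 6 genes of the 38283 it lists. They were chosen by family and with their FPKM values in the 3 cell types already known, so differences of these genes between cell types are described and not tested. RNA sequencing had been carried out on 15 samples of islet cells sorted by flow cytometry, 5 of alpha cells, 4 of beta cells and 6 of delta cells. All mice were on the C57BL/6 strain. Alpha and beta cells came from Glu-Venus mice, in which the fluorophore Venus is driven by the proglucagon promoter. Alpha cells were the Venus-positive cells, and beta cells were Venus-negative cells gated on high scatter and background autofluorescence. Delta cells came from Sst-CreXROSA26EYFP/EYFP mice, in which Cre under the somatostatin promoter switches on EYFP at the Rosa26 locus and leaves a cell marked even if it later stops making somatostatin. Cell type and mouse line cannot be told apart where delta cells are compared with the others, and no age or treatment is given for the sorted mice. Each sample pooled islets from several mice, so the spread between samples, and every p-value below, concerns pools.

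PP-fold peptides are amidated chains of 36 residues that fold back on themselves into a hairpin. Pancreatic polypeptide is the hormone of the PP (gamma) cells of the islet, peptide YY is best known from the enteroendocrine L cells of the gut and is also made in islets, and neuropeptide Y is chiefly a neuronal and sympathetic transmitter. Their receptors couple to inhibitory G proteins, which can lower cyclic AMP and can open GIRK potassium channels. In islets, Npy1r has been studied mainly as a brake on insulin secretion, and the receptor that prefers pancreatic polypeptide is Npy4r, listed here under its older symbol Ppyr1.

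The mature parts of the 3 ligands are shown first, because their likeness decides whether reads of one gene could be credited to another. Each line gives, 5′ to 3′, the 36 codons of the peptide in lower case, followed in capitals by the glycine, lysine and arginine codons at which the precursor is cut and amidated. The sequences were read from GENCODE M21 transcripts on GRCm38.
Ppy: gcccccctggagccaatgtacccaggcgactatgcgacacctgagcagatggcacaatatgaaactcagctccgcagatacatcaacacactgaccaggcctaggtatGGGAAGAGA
Pyy: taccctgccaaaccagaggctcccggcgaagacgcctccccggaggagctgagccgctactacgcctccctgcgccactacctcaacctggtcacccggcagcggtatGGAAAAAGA
Npy: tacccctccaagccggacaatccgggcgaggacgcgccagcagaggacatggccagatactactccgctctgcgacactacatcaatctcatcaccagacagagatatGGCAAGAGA
Position by position, 58 of the 108 bases before the capitals were identical between Ppy and Pyy (53.7%), 61 between Ppy and Npy (56.5%) and 76 between Pyy and Npy (70.4%). No window of 50 bases, the length of a read, was shared between the annotated transcripts of Ppy, Pyy, Npy, Npy2r or Npy5r and those of any other gene, so none of these genes shares a full-length exact read with another. Npy1r was the exception, with 98 of its 3452 windows also present in transcripts of other genes, and its low values below are uncertain for that reason.

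Ppy and Pyy lie side by side on the minus strand of chromosome 11 (GRCm38). Ppy (ENSMUSG00000017316) spans chr11:102099930-102101319 and Pyy (ENSMUSG00000017311) chr11:102106676-102107832, with 5356 bases and no other protein-coding gene between them. Npy (ENSMUSG00000029819) is on chromosome 6, at chr6:49822710-49829507. Npy1r (ENSMUSG00000036437) and Npy5r (ENSMUSG00000044014) are neighbours on opposite strands of chromosome 8, at chr8:66697192-66706792 and chr8:66679965-66688128. Npy2r (ENSMUSG00000028004) is on chromosome 3, at chr3:82538383-82548084. No member overlaps another annotated gene. Because Ppy and Pyy were high and low in the same cell types, the 250 bases before the start of each are shown, from RefSeq promoters on GRCm38.p6. Both are on the minus strand, Ppy at chr11:102101320-102101569 and Pyy at chr11:102107833-102108082, and each is printed 5′ to 3′ up to the base before the start, with the letters TATAA in capitals.
Ppy promoter: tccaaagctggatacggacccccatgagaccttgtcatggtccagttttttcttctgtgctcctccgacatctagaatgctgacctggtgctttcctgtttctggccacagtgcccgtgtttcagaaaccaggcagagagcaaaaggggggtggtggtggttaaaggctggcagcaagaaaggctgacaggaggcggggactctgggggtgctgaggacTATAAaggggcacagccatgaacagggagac
Pyy promoter: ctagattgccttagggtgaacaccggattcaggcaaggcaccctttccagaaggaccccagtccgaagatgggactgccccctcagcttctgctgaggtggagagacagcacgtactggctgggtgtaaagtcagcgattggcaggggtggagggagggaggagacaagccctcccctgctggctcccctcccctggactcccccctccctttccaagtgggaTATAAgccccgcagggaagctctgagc
TATAA began 31 bases before the start of Ppy and 27 bases before that of Pyy. These letters, searched on both strands, were chosen after the sequences had been seen, and 22.8% of 32817 promoter windows of this length hold them. The E-box letters CANNTG were found once in the Pyy window and not in that of Ppy, against 66.2% of all windows, and the letters TGACG in neither, against 17.7%.

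The hormone genes followed the cell type labels. In alpha cells Gcg reached 273077 ± 72015 FPKM (SD, n = 5), with Ins2 at 295241 ± 252306 (n = 4) in beta cells and Sst at 163268 ± 77761 (n = 6) in delta cells, each the highest nuclear protein-coding gene of its own cell type. FPKM divide the fragments of a gene by its transcript length and by sequencing depth, so levels of different genes are compared per length. The table gives no read totals, but the steps left by single reads could be resolved in 6 samples (alpha 2 and 5, delta 1 to 4) and correspond to depths of 7.45 M to 30.4 M reads. The depth of the other 9, all beta samples among them, is unknown. Samples also fell into 2 sets by their ribosomal protein transcripts. The sum over 85 such genes was 65611 to 140979 FPKM in alpha 1 to 3, beta 2 and delta 1 and 2, and 7919 to 38775 in the rest. The limit of 50000 between them was set after the values had been seen, and values within the sets are given beside the results they touch.

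Ppy, the pancreatic polypeptide gene, was among the most abundant transcripts of alpha and delta cells and was low in beta cells. In alpha samples 1 to 5 it was at 28751, 41392, 39211, 25036 and 17728 FPKM. In beta samples 1 to 4 it was at 34.9, 98.1, 30.3 and 16.9 FPKM. In delta samples 1 to 6 it was at 30339, 48600, 14596, 12834, 11612 and 10857 FPKM. Every alpha and every delta sample was above every beta sample, alpha and delta samples overlapped, and delta 1 and 2 stood above the other delta samples. The means were 30424 ± 9881 FPKM (SD, n = 5) in alpha, 45.0 ± 36.2 (n = 4) in beta and 21473 ± 15141 (n = 6) in delta cells. In order of level, Ppy was the third nuclear protein-coding gene of 21159 in both alpha and delta cells and number 1060 in beta cells.

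Pyy, the peptide YY gene, had the same order of cell types against beta cells. It was at 34790, 44159, 31188, 32380 and 46280 FPKM in alpha samples 1 to 5. It was at 63.4, 185, 80.2 and 46.0 FPKM in beta samples 1 to 4. It was at 60862, 65372, 36622, 22689, 51511 and 43437 FPKM in delta samples 1 to 6. Again no beta sample reached an alpha or delta sample, and alpha and delta samples overlapped. The means were 37759 ± 6973 FPKM (SD, n = 5), 93.5 ± 62.3 (n = 4) and 46749 ± 15881 (n = 6). Pyy ranked second after the defining hormone in both alpha and delta cells and was number 479 in beta cells.

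**Figure D1:**
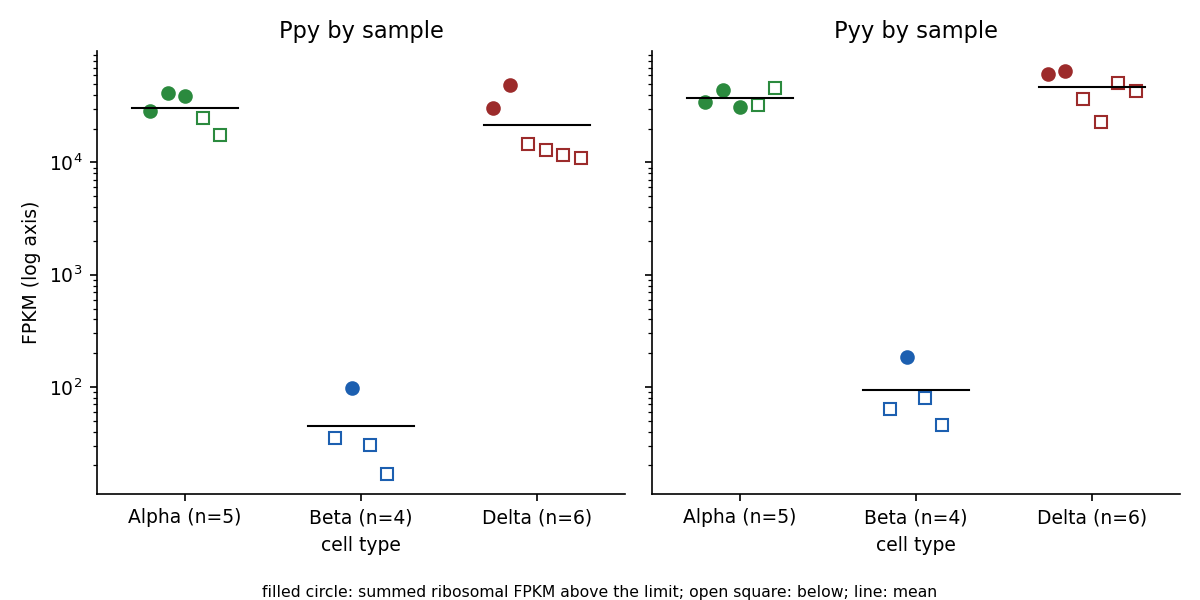
Ppy and Pyy in each sample, in FPKM on a log axis, by cell type; points are samples, lines are means, and filled circles are the 6 samples with summed ribosomal protein FPKM above 50000. Beta samples lie between 16.9 and 185 FPKM, and alpha and delta samples lie between 10857 and 65372 FPKM.

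As ratios of mean FPKM, Ppy was 675-fold higher in alpha than in beta cells and 477-fold higher in delta than in beta cells. For Pyy the ratios were 404-fold and 500-fold. These folds rest partly on beta 2, the highest beta sample for both genes, and without it they were 1112 and 785 for Ppy and 598 and 740 for Pyy. On the scale used for the tests, log2(FPKM + 1), beta minus alpha was -9.59 (SE 0.571) for Ppy and -8.83 (SE 0.460) for Pyy, and delta minus beta was 8.91 (SE 0.549) and 9.07 (SE 0.443). Between delta and alpha cells Ppy differed by -0.69 (SE 0.515) and Pyy by 0.24 (SE 0.415), values close to their standard errors whose signs were not stable. The first was 0.02 with quantile normalization and 0.09 in the samples above the ribosomal limit described above, and the second was -0.07 in those below it. These differences carry no test, and of the 6 members Ppy and Pyy were the 2 whose beta samples all lay below every alpha and delta sample. Of the 14405 genes tested, 3.26% did so, 5.07% against alpha samples and 12.3% against delta samples taken singly. Over all 14405 genes tested with limma at an adjusted p of 0.05, beta against alpha cells gave 7.66% (2.84% higher and 4.82% lower in beta). Delta against alpha gave 6.81% (5.33% higher and 1.48% lower in delta), and delta against beta gave 14.7% (11.7% higher and 2.99% lower in delta). Nothing is read from the members against these shares.

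The level of Ppy in delta cells moved with the ribosomal sets. In the set above the limit, Ppy averaged 36451 FPKM in alpha (n = 3) and 39469 in delta cells (n = 2), with the single beta sample at 98.1. In the set below it, Ppy averaged 21382 FPKM in alpha (n = 2), 12475 in delta (n = 4) and 27.4 in beta cells (n = 3). Alpha and delta samples overlapped in the first set and did not in the second, where alpha samples were at 17728 and 25036 FPKM and no delta sample exceeded 14596. Pyy in delta cells was at 60862 and 65372 FPKM in the first set and at 22689 to 51511 in the second, while in alpha cells its means were 36712 and 39330. The gap to beta cells was present for both genes within each set, and whether the ribosomal difference has a part in the spread of Ppy was not tested.

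Set against Pyy in the same sample, Ppy gave a ratio of 0.835 ± 0.315 (SD, n = 5) in alpha, 0.457 ± 0.0971 (n = 4) in beta and 0.447 ± 0.197 (n = 6) in delta cells. Alpha 3, at 1.26, was the only sample in which Ppy exceeded Pyy. The lowest alpha sample, at 0.383, lay within the ranges of the beta samples (0.369 to 0.550) and delta samples (0.225 to 0.743), so the cell types overlapped in this ratio.

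Against the hormone of each sort, the pattern differed between cell types. Per Gcg, Ppy was at 0.136, 0.120, 0.118, 0.136 and 0.061 in alpha samples 1 to 5 and at 0.134, 0.054, 0.183 and 0.0567 in beta samples 1 to 4. The beta samples thus spanned the alpha range, although Ppy itself was far lower in them. In delta samples the same ratio was between 20.8 and 67.3. Pyy per Gcg was 0.0935 to 0.176 in alpha, 0.102 to 0.483 in beta and 37.7 to 218 in delta samples.

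Expressed as shares of mean FPKM, Gcg in delta cells was 0.189% of its level in alpha cells, whereas Ppy in delta cells was 70.6% and Pyy 124% of theirs. In beta cells, Gcg was at 0.233%, Ppy at 0.148% and Pyy at 0.248% of the alpha level, and without beta 2 these shares were 0.0886%, 0.090% and 0.167%, so no order of Gcg and Ppy is read from them. Sst in alpha cells was at 0.992% of its level in delta cells, and Ppy there at 142%. The levels of Ppy and Pyy in delta cells were therefore out of proportion to their Gcg, and those in alpha cells to their Sst, while in beta cells all of these genes were low together.

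Against Sst, the ligands varied less between the 6 delta pools than they did alone. Ppy per Sst was 0.117, 0.183, 0.114, 0.126, 0.0996 and 0.101 in delta samples 1 to 6. The highest of these was 1.83 times the lowest, against 4.48 times for Ppy itself and 2.62 times for Sst, and for Pyy per Sst it was 1.98 times (0.224 to 0.442), against 2.88 times for Pyy. This rested for Ppy on delta 1 and 2, in which Ppy, Pyy and Sst were all high. In delta 3 to 6 Ppy spanned 1.34 times and Ppy per Sst 1.27 times, and Pyy 2.27 times and Pyy per Sst 1.98 times. Without delta 2 alone, Ppy spanned 2.79 times and Ppy per Sst 1.27 times. In alpha samples Ppy per Sst was 11.3 to 24.4, and in beta samples 0.213 to 0.799. In bulk samples, fewer cells making a hormone and less of its RNA per cell cannot be told apart, nor can Ppy made by the labelled cells and Ppy from PP cells caught in the same gate.

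**Figure D2:**
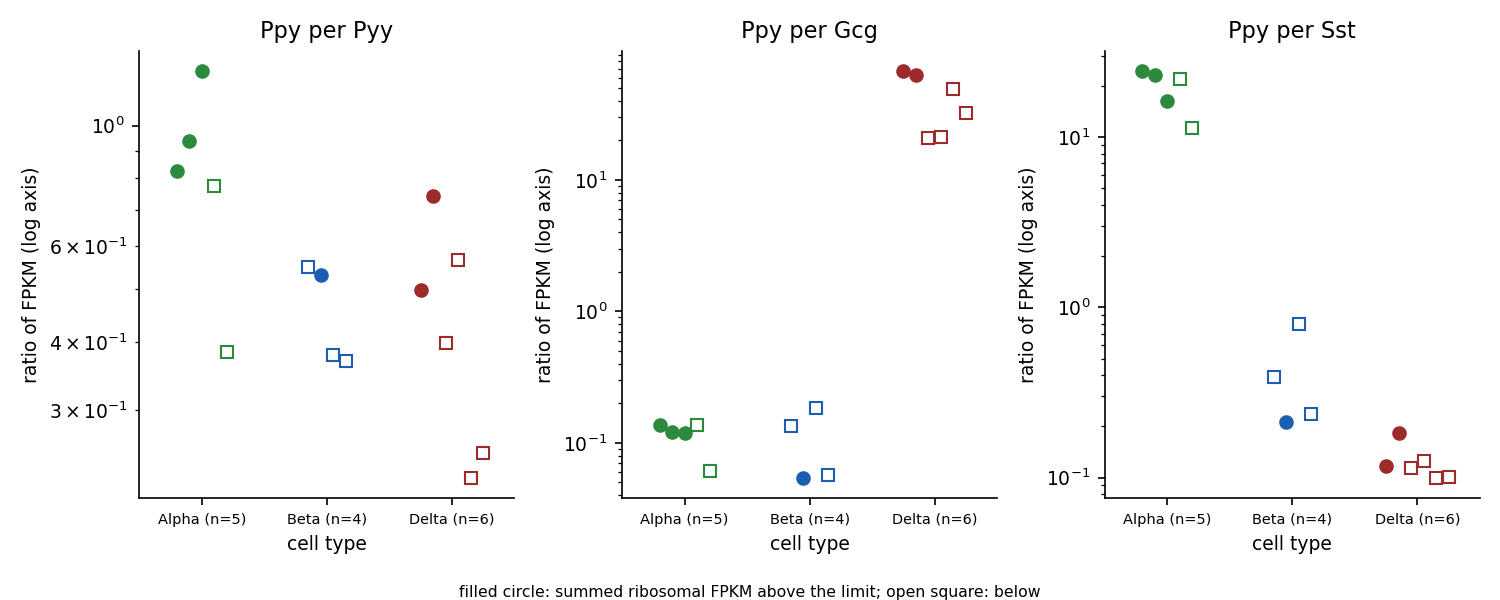
Ratios of FPKM within each sample on log axes, by cell type, for Ppy per Pyy, Ppy per Gcg and Ppy per Sst; filled circles are samples with summed ribosomal protein FPKM above 50000. Ppy per Gcg is 0.054 to 0.183 in alpha and beta samples and 20.8 to 67.3 in delta samples, and Ppy per Sst is lowest in delta samples, at 0.0996 to 0.183.

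Covariation between the 6 delta pools is given as a description, without p-values, since these samples were among the values known when the genes were chosen. Pearson's r of log2(FPKM + 1) for Ppy and Pyy was 0.64 and Spearman's rho 0.54. Without delta 1 and 2, the pools with high ribosomal FPKM, r was -0.45, but with median-ratio size factors, a rescaling of the samples, it was 0.55 over all 6 pools and 0.42 without these 2. Ppy and Gcg gave r = 0.55 and rho = 0.77, with r = 0.84 without delta 1 and 2, and after rescaling r was 0.42 and 0.45. Pyy and Gcg gave r = -0.18 and rho = 0.09, with r = -0.47 without delta 2 and 4, and after rescaling r was -0.28 and, without delta 3 and 4, 0.90. The sign for Ppy with Pyy and for Pyy with Gcg turned with the pools left out on one scale and not on the other, and no relation is read from these values.

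Npy, the neuropeptide Y gene, was low and patchy in all cell types. It was at 3.52 FPKM in alpha 1 and listed at 0 in alpha 2 to 5. In beta samples 1 to 4 it was at 1.45, 7.57, 0 and 0.257 FPKM, and in delta samples 1 to 6 at 2.36, 0, 0.800, 1.18, 0.287 and 0 FPKM. The cell types overlapped, and 1 alpha, 3 beta and 4 delta samples were above 0. The means were 0.704 ± 1.57 FPKM (SD, n = 5), 2.32 ± 3.56 (n = 4) and 0.772 ± 0.907 (n = 6), and the gene entered the tested set through the beta mean alone, which rests on beta 2. Differences of mean log2(FPKM + 1) were 0.75 (SE 0.622) for beta minus alpha, 0.25 (SE 0.561) for delta minus alpha and -0.50 (SE 0.598) for delta minus beta. Without beta 2 the first fell to 0.11 and the last turned to 0.14, and without alpha 1 the first was 1.18 and the second 0.68.

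Where the read steps were resolved, the nonzero values of Npy were well above single reads. They corresponded to about 9.3 reads in delta 1, 8.9 in delta 3 and 11 in delta 4. For the samples listed at 0, the worth of 3 reads was 1.10 FPKM in alpha 2, 0.313 in alpha 5 and 0.833 in delta 2, so a listing at 0 allows a level of up to these values there. These floors cover counting error only. Dbh, the noradrenaline-synthesising enzyme of sympathetic neurons, was at 0 in all 15 samples, and Sox10, a Schwann cell gene, was at 0 in all alpha and beta samples. The part of other cell types in the Npy values was not tested.

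Of the receptors, Npy1r alone had any value above 0, and its values were near the limit of detection. In alpha samples 1 to 5 it was at 0.0405, 0, 0, 0.0480 and 0.0260 FPKM. In beta samples 1 to 4 it was at 0.0999, 0, 0.0322 and 0.0447 FPKM, and in delta samples 1 to 6 at 0, 0.0338, 0.0584, 0.108, 0.0263 and 0.0781 FPKM. The cell types overlapped throughout, with means of 0.0229 ± 0.0223 (SD, n = 5), 0.0442 ± 0.0416 (n = 4) and 0.0508 ± 0.0389 (n = 6). In reads, the values were about 1.9 in alpha 5, 0.93 in delta 2, 5.0 in delta 3 and 7.7 in delta 4. With reads this few and windows shared with other genes, no order of the cell types could be read from Npy1r.

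**Figure D3:**
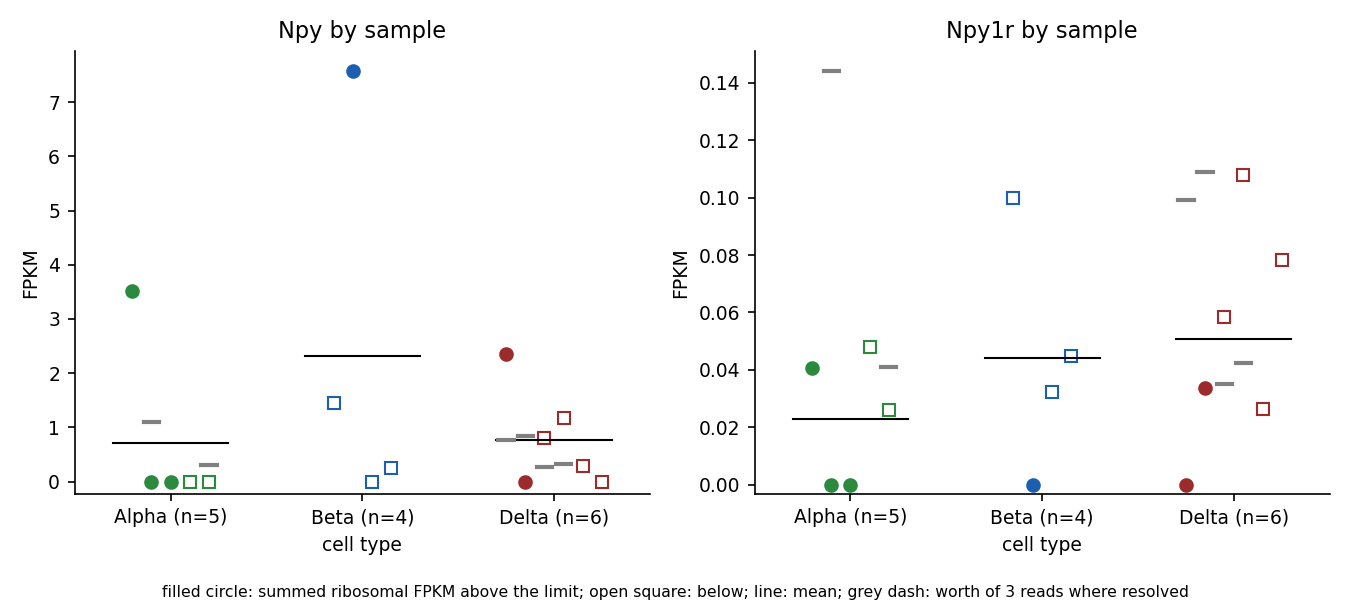
Npy and Npy1r in each sample, in FPKM on linear axes, by cell type; points are samples, lines are means, filled circles are samples with summed ribosomal protein FPKM above 50000, and grey dashes mark the worth of 3 reads in the 6 samples where read steps were resolved. Npy reaches 7.57 FPKM in beta 2 and 3.52 in alpha 1, and Npy1r stays at or below 0.108 FPKM.

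Npy2r and Npy5r were listed at 0 in all 15 samples, as were Ppyr1 (Npy4r), the receptor preferred by pancreatic polypeptide, and Npy6r. In the samples with resolved steps, 3 reads would be worth 0.0312 to 0.127 FPKM for Npy2r and 0.0467 to 0.190 FPKM for Npy5r, the levels that a listing at 0 allows. Of 21172 protein-coding genes, 4935 (23.3%) were at 0 in every sample. The 6 members thus fell into 2 ligands at 10857 FPKM or more in every alpha and delta sample, 1 ligand at 7.57 FPKM at most, and 3 receptors at or near 0, and 3 of the 6 passed the filter of mean FPKM above 1 in at least 1 cell type.

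The genes around the Ppy and Pyy pair were examined by position. Mpp2, a membrane scaffold protein gene next to Ppy, was at 8.59 ± 6.38 FPKM (SD, n = 5) in alpha, 0.482 ± 0.163 (n = 4) in beta and 9.60 ± 3.82 (n = 6) in delta cells. Its beta samples, at 0.265 to 0.646 FPKM, lay below all alpha and delta samples (2.2 to 18.2). On the log2(FPKM + 1) scale beta minus alpha was -2.43 (SE 0.471, limma adjusted p = 0.00427) and delta minus beta was 2.74 (SE 0.453, limma adjusted p = 0.000662), and delta and alpha cells differed by 0.31 (SE 0.425, adjusted p = 0.785). Nags, the N-acetylglutamate synthase gene beyond Pyy, had a value of 0 for every alpha and beta sample and lay at 0.527 to 2.09 FPKM in delta samples, and it entered the tested set through the delta mean alone, so no test is given. Tmem101 did not pass in any comparison (adjusted p = 0.120 to 0.951), and Cd300lg was too low to test. Mpp2, like 3.26% of all genes tested, thus had every beta sample below every alpha and delta sample, and the other neighbours did not. Nothing about the locus is read from this.

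The genes whose profile over the 15 samples was most like that of each ligand were listed by Pearson's r of log2(FPKM + 1), as a description dominated by the differences between cell types. For Ppy they were Pyy (0.987), the potassium channel gene Kcnk3 (0.976), the gluconeogenic enzyme gene Fbp1 (0.971), Agpat4 (0.968) and PIK3C2G (0.968). For Pyy they were Ppy (0.987), Kcnk3 (0.978), the glutathione peroxidase gene Gpx3 (0.972), Agpat4 (0.969) and the retinol-binding protein gene Rbp4 (0.969). Fbp1, for example, averaged 32.7, 0.106 and 20.4 FPKM in alpha, beta and delta cells. Gcg and Sst, which mark one cell type each, had lower values with Ppy, 0.517 and 0.718. For Npy, the genes most alike were Zdhhc15 (0.877), Metrnl (0.865), Taz (0.862), BC026590 (0.853) and Mapk14 (0.829), over samples in which 7 of the 15 Npy values were 0.

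Genes that act before and after these peptides were counted from lists of 35 symbols for other Y receptors, precursor maturation, peptide cleavage, inhibitory G protein subunits, GIRK channels and adenylyl cyclases. The lists were drawn up with earlier results of these data known, so their counts are a description and support no statement about the lists. Of these symbols, 34 were in the table and 22 were tested with limma on log2(FPKM + 1). In the beta to alpha comparison 4 of 22 passed an adjusted p of 0.05, 1 higher and 3 lower in beta (18.2%, against 7.66% of all genes tested). Between delta and alpha cells 7 passed, 4 higher and 3 lower in delta (31.8%, against 6.81%). Between delta and beta cells 8 passed, 6 higher and 2 lower in delta (36.4%, against 14.7%). Both delta counts include Adcy2 and Adcy8 as higher, which entered the tested set through the delta mean alone. The median difference over the 22 genes was 0.00, 0.38 and 0.50, beside -0.13, 0.13 and 0.30 over all genes tested.

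Of the 6 maturation genes (Pcsk1, Pcsk2, Cpe, Pam, Scg5 and Pcsk1n), Pcsk1 alone passed, and it did so in every comparison. Pcsk1 encodes the prohormone convertase that beta cells use on proinsulin. It was at 0.365 to 2.36 FPKM in alpha samples, 12.7 to 21.4 in delta samples and 56.5 to 263 in beta samples, with no overlap. It was 5.92 higher on the log2 scale in beta than in alpha cells (SE 0.425, limma adjusted p = 3.46e-07), 3.12 higher in delta than in alpha cells (SE 0.383, adjusted p = 5.29e-05), and delta minus beta was -2.79 (SE 0.409, adjusted p = 0.000233). Alpha and delta cells, both rich in Ppy and Pyy, thus differed in this convertase.

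Of 8 genes for cell-surface and related peptidases, 4 were tested, and Fap and Anpep passed. Fap, a serine peptidase of the Dpp4 family, was at 12.3 to 62.9 FPKM in alpha samples, 5.57 to 112 in beta samples and 0 to 0.267 in delta samples. Delta cells lay below both others without overlap, by -4.94 against alpha (SE 0.591, limma adjusted p = 4.02e-05) and -4.43 against beta cells (SE 0.630, adjusted p = 0.000182). Anpep, aminopeptidase N, was at 12.5 to 86.1 FPKM in delta samples, 0.775 to 23.1 in alpha samples, which overlapped them, and 10.3 to 12.5 in beta samples. Delta cells were above alpha cells by 2.69 (SE 0.603, limma adjusted p = 0.0101) and beta cells by 2.00 (SE 0.643, adjusted p = 0.0468). The first was lost with the replicate number as a block (adjusted p = 0.0586). The second passed under 7 of 23 alternative settings (adjusted p 0.0141 to 0.163) and was lost in 11 of the 15 fits that left out 1 sample (up to 0.104). Acinar cells also carry aminopeptidase N. The summed FPKM of 6 acinar markers was 2.06 to 466 in delta, 0.122 to 63.3 in alpha and 0.0283 to 9.10 in beta samples. Among delta samples the lowest sum was in delta 5, with Anpep at 86.1 FPKM, and the highest in delta 4, with Anpep at 72.7. The part of acinar cells in the Anpep values was not tested.

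Among genes of receptor signalling, the inhibitory G protein subunit gene Gnai1 and 2 of the 4 listed GIRK channel genes, Kcnj3 and Kcnj6, passed in at least 1 comparison. The other 2 GIRK genes were too low to test. Gnai1 was the one of 5 subunit genes to pass, at 20.5 to 58.1 FPKM in alpha, 1.68 to 25.6 in beta and 2.66 to 7.10 in delta samples. It was lower than in alpha cells by -2.61 in beta (SE 0.530, limma adjusted p = 0.00603) and -2.86 in delta cells (SE 0.478, adjusted p = 0.000982), and the first of these was lost when only alpha and beta samples were fitted (adjusted p = 0.0532). Kcnj3, a GIRK subunit gene, was listed at 0 in 3 beta samples and at 0.107 FPKM in the other, at 2.05 to 4.56 in delta and 5.29 to 14.4 in alpha samples. All 3 of its comparisons passed, with beta minus alpha at -3.33 (SE 0.322, limma adjusted p = 5.48e-06), delta minus alpha at -1.29 (SE 0.290, adjusted p = 0.0105) and delta minus beta at 2.04 (SE 0.310, adjusted p = 0.000316). Kcnj6, another GIRK subunit gene, was at 0.472 to 1.00 FPKM in beta samples, below alpha samples (2.63 to 10.2; difference -1.64, SE 0.389, limma adjusted p = 0.0173) and delta samples (1.5 to 5.79; difference 1.43, SE 0.375, adjusted p = 0.0168). Without beta 1 both missed the threshold (adjusted p = 0.0547 and 0.0530), the alpha difference also did so when only alpha and beta samples were fitted (0.0596), and the delta difference did so under both rescalings of the samples (0.0535 and 0.0843).

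Of 9 genes for adenylyl cyclases, which make cyclic AMP, 5 were tested, and Adcy2, Adcy6 and Adcy8 passed in at least 1 comparison. Adcy3 and Adcy9 passed in none. Adcy2 was at 1.56 to 2.53 FPKM and Adcy8 at 1.44 to 3.36 in delta samples, and neither exceeded 0.129 in any alpha or beta sample. Both entered the tested set through the delta mean alone, so nothing is read from their passing and no p-value is given. Adcy2 in delta cells exceeded alpha cells by 1.52 (SE 0.211) and beta cells by 1.59 (SE 0.225). For Adcy8 the differences were 1.76 (SE 0.224) and 1.78 (SE 0.239). Adcy6 passed between delta and beta cells alone, at 4.5 to 13.8 against 1.46 to 2.38 FPKM (1.65, SE 0.406, limma adjusted p = 0.0116), and in delta against alpha cells it did not pass.

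**Figure D4:**
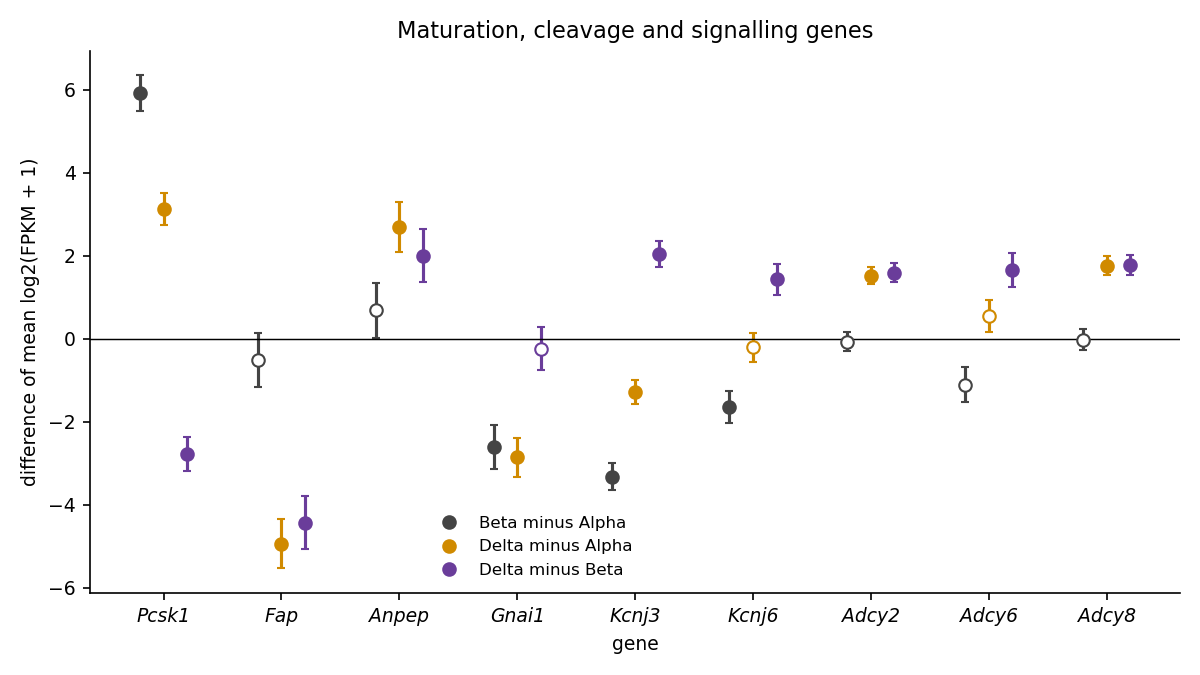
Differences of mean log2(FPKM + 1) between cell types, with standard errors, for the 9 maturation, cleavage and signalling genes that passed in at least 1 comparison; filled points have an adjusted p under 0.05 (limma), open points do not. Pcsk1 has the highest value, 5.92 in beta minus alpha cells, and Fap the lowest, -4.94 in delta minus alpha cells. Adcy2 and Adcy8 entered the tested set through the delta mean alone, so nothing is read from their filled points.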

How the data were processed

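Single 50 nt reads of amplified RNA were aligned by the authors to GRCm38, with TopHat2 2.0.8 and Cufflinks 2.2.1 according to the submitters' processing notes (the paper's methods name a different TopHat version). The annotation release is not given in the sources used here. The deposited table holds 1 FPKM value per gene and sample, normalized by the authors to transcript length and mapped reads, and short transcripts such as those of Ppy, Pyy and Npy depend most on the assumed fragment length. The authors compared cell types with edgeR on read counts, and those counts were not used here. A test for normalized values took its place. Columns were matched to samples by their titles, and 0 columns were left out.

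Genes with mean FPKM above 1 in at least 1 cell type (14405) were fitted with limma 3.58.1 in R 4.3.3 on the log2(FPKM + 1) scale. The model had 1 mean per cell type, moderated variances with a trend (eBayes) and all 15 samples, and p-values were adjusted by the Benjamini-Hochberg method over all genes fitted. Differences on this scale understate changes of low genes. The fit was first tested on simulated data. Members and gene lists were chosen with earlier results of these data known. Members are therefore described without a test, and counts over the lists, whose genes were tested in the fit of the whole table, are read as a description. Exact permutation tests planned for 3 correlations of members across delta samples are not used for the same reason, and none had an adjusted p under 0.05. The genes named are the members, the listed genes that passed, the 5 genes most like each tested member, and hormone genes. Neighbours, ratios, promoters and the 2 sets of samples were added to this rule later. Read steps were searched in 5024 genes with 1 transcript longer than 1000 nt, less 200 nt for the fragment. Correlations used SciPy 1.17.1 in Python 3.11.15. Coordinates are from GENCODE M21, where 36341 of the table's genes had an entry. Alternatives were a pseudocount of 0.1, median-ratio size factors, quantile normalization, other filters, fits of 2 cell types, a replicate block, the log2 ratio of means and leaving out each sample. The ribosomal sets, as a covariate or taken singly, were chosen after seeing the data. A marker list for Schwann cells and neurons is reported here only in part.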

Additional observations from a re-analysis of the deposited data

Results flagged for a closer look

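Of 27 groups of samples examined for a single value far from the rest, 3 held one. For independent groups of normally distributed values, chance alone would flag about 1 in 20 groups, or 1.35 here. These groups do not meet that, because ratios reuse the values of the same genes and Npy holds many zeros. No excess over chance is therefore read from the 3 flags. Npy in alpha 1 was at 3.52 FPKM, while the other 4 alpha samples were listed at 0. Ppy per Gcg in alpha 5 was 0.061, below the other alpha samples at 0.118 to 0.136. Ppy per Sst in delta 2 was 0.183, above the other delta samples at 0.0996 to 0.126.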

How the results depend on the processing

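Differences of Ppy and Pyy between beta cells and the others kept their sign under every alternative run, whereas delta minus alpha turned to 0.02 (quantile normalization) and 0.09 (above the ribosomal limit) for Ppy and to -0.07 (below it) for Pyy. Some differences from beta cells moved beyond the spread between samples in the set above the ribosomal limit, where beta 2 was the only beta sample. There beta minus alpha was -8.51 for Ppy and -7.61 for Pyy, and delta minus beta was 8.41 for Pyy. Every beta difference in that set, also those of Npy and Npy1r below, rests on beta 2. For Npy, beta minus alpha was 1.98 with a pseudocount of 0.1 and 2.37 in that set, and delta minus beta was -1.59 as a log2 ratio of means and -2.22 in that set. For Npy1r the differences (beta minus alpha, delta minus alpha, delta minus beta) were 0.21, 0.27 and 0.07 with a pseudocount of 0.1 and 0.95, 1.15 and 0.20 as log2 ratios of means. They turned to -0.02 (delta minus alpha) and -0.06 (delta minus beta) with quantile normalization, and beta minus alpha to -0.02 in the set above the limit. The cause was not tested. Of the listed genes, 2 passed in beta against alpha cells when only these were fitted, and 5 in delta against beta cells with a filter of mean FPKM above 5, which tests fewer genes. Leaving out each sample gave 3 to 5, 7 and 6 to 9 genes in the 3 comparisons, -10.06 to -9.24 for Ppy and -9.22 to -8.56 for Pyy in beta minus alpha, and -0.89 to 0.14 for Npy in delta minus beta. Of 431 alternative values for the 19 calls, 408 stayed past the threshold, 23 did not and 0 changed sign. The calls include those of Adcy2 and Adcy8, which entered the tested set through the delta mean alone. Deviations of samples with the same replicate number had a mean r of 0.0761 (-0.152 to 0.281, above 0.1 in 5 of 13 pairs), against -0.0161 for other numbers, which leaves a shared sort unresolved. With the replicate block, 4, 6 and 7 listed genes passed, Anpep being lost in both delta comparisons (limma adjusted p = 0.0586 and 0.163), and Ppy in beta minus alpha was -9.78. Median-ratio size factors moved the median of all genes from 0.295 to 0.0173 in delta minus beta. Depth limits the receptor values and is unknown for 9 samples.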
